A study of Mus musculus with 8 samples.

Results

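The loci of 10 genes that encode activator protein 1 (AP-1) subunits and close relatives were examined for chromatin accessibility in mouse bone marrow-derived macrophages. The genes were Jun, Junb, Jund, Fos, Fosb, Fosl1, Fosl2, Atf3, Batf and Maff. Every peak of open chromatin that the deposited tables assign to one of these genes, and that lies within 100 kb of its transcription start site (TSS), was taken. This gave 10 of the 9698 peaks in the table of wild-type (WT) cells and 42 of the 24867 peaks in the table of NCoR f/f cells. The 10 WT peaks fall at 5 of the 10 genes, with 3 at Atf3, 3 at Junb, 2 at Jun, 1 at Jund and 1 at Fos. The members were thus chosen by gene and distance, and also by measured tags, since a region had to be a reproducible peak in at least 1 condition to be listed.

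AP-1 is a dimer of basic leucine zipper (bZIP) proteins. Jun proteins pair with each other or with Fos proteins and bind the sequence TGACTCA, whereas dimers that contain ATF or CREB proteins prefer TGACGTCA. Toll-like receptor signaling reaches AP-1 through the MAP kinases, and in macrophages AP-1 works beside PU.1 and NFkB at enhancers of inflammatory genes. Many of the genes are immediate early genes, whose transcription starts within minutes of a signal and stops soon after, and Jun activates its own promoter.

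ATAC-seq, which counts transposase cuts in open DNA, was carried out on cells cultured from the bone marrow of C57BL/6 mice aged 8 to 12 wk, after 12 h of serum starvation. WT cells received vehicle (Veh), Kdo2-lipid A (KLA, a purified ligand of TLR4, at 100 ng/mL) for 6 h, or KLA with RGFP966, a selective inhibitor of the histone deacetylase HDAC3. For the last group the sample titles name RGFP966 while the treatment entry names KLA alone. The methods of the study place RGFP966 at the time of the serum starvation, before KLA, and no group had RGFP966 alone. The fourth group was vehicle-treated NCoR f/f cells, which carry floxed alleles of the corepressor gene Ncor1, have no Cre and served as the control for NCoR knockout (NKO) cells. Each group held 2 libraries, and nothing states whether they came from separate mice or cultures, so p-values measure the spread between these libraries, which may be technical. The WT libraries held 116733 to 202523 tags in peaks, which is 1.4% to 2.06% of their tags, and the NCoR f/f libraries held 372367 and 509741. A peak near the promoter (within 2 kb of the TSS) was listed for 2 of 10 macrophage marker genes in WT cells, Cd68 among them, and 7 of 10 in NCoR f/f cells. None was listed for 5 T cell, 5 B cell or 4 fibroblast markers in either table, while Zbtb46, a dendritic cell marker, had one in both tables and Mmp8, a neutrophil marker, had one in NCoR f/f cells.

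The sequences of 3 regions at which the WT comparisons turn are given first, from the RefSeq GRCm38.p6 genome (mm10 coordinates), 5′ to 3′ in the direction of the gene. The Jun promoter peak (chr4:95052226-95052604, minus strand) lay wholly upstream of the TSS. The 300 bases nearest the TSS (chr4:95052226-95052525) are shown because this region lost the most signal with KLA among the members. Capitals mark the paired elements long described as the sites at which Jun and ATF proteins bind this promoter, TGACATCA (45 bp upstream of the TSS) and TTACCTCA (164 bp upstream), which were looked up after the values were seen. The Jun −53.9 kb region (chr4:95106041-95106240, minus strand) is shown because it was called in another comparison. It holds none of the motifs searched and so has no capitals. The Atf3 −6.7 kb region (chr1:191189955-191190154, minus strand) is shown for its AP-1 match, in capitals, and was chosen after its values were seen.
Jun promoter: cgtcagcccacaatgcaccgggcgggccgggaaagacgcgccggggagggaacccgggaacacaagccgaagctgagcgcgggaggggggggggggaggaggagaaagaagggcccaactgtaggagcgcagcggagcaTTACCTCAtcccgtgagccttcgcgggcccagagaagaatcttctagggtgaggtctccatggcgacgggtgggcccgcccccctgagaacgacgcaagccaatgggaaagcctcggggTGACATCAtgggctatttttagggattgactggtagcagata
Jun −53.9 kb: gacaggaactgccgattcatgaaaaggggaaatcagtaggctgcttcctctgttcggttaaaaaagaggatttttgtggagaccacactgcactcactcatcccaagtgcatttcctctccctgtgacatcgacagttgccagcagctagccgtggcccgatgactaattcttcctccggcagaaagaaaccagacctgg
Atf3 −6.7 kb: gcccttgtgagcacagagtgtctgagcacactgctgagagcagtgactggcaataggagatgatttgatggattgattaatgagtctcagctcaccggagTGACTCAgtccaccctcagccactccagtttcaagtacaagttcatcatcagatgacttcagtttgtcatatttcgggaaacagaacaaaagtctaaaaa

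Of the 10 WT peaks, 1 (Atf3 −6.7 kb) held the AP-1 consensus (TGACTCA, or TGAGTCA on the other strand) in the 200 bp at its center, against 15.6% of the 9527 WT peaks on assembled chromosomes. The cAMP response element TGACGTCA occurred in 1 (Jund +1.0 kb) against 1.91%, and the NFkB-p65 consensus in 1 (Junb +2.2 kb, at 3 start positions) against 4.89%. Matches to the CArG box bound by SRF (1.01% of all peaks), to the PU.1 sequence GAGGAAGT (7.49%) and to the C/EBP sequence TTGCNNAA (10.9%) were found in 0 of the 10. Over whole peaks, TGACATCA was present in 3.15% and TTACCTCA in 0.934% of WT peaks, and the Jun promoter held both. Both strands were searched, each motif was counted on its own where matches overlapped, and a match describes the letters in the window only.

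The first question was how KLA changed accessibility at these loci. The Jun promoter, which drives the central AP-1 subunit, lost accessibility. Its level, in tags per 10000000 tags in peaks, was 3645 and 2147 in the 2 Veh libraries, 642 and 942 with KLA and 1531 and 1133 with RGFP966 + KLA. These levels rest on 47 and 26, 12 and 11, and 31 and 22 tags. Both KLA libraries lay below both Veh libraries, and both RGFP966 + KLA libraries lay between the 2 other groups. The promoter fell by 1.93 on the log2 scale from Veh to KLA (SE 0.34), which is 3.82-fold lower, with an adjusted p of 2.1e-04 in edgeR's quasi-likelihood test over all 9698 peaks. DESeq2, which called 0 peaks of the whole table in this comparison, gave an unadjusted p of 2.6e-04 and an adjusted p of 0.196. In these bulk samples, fewer cells with an open promoter and less opening per cell cannot be told apart, and the part of macrophage marker levels in the loss was not tested. Without any 1 library, edgeR's log2 fold change lay between −2.25 and −1.49 and the adjusted p reached 0.0439 at most.

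A p-value is given here only for peaks that the authors listed as reproducible in the condition outside the pair compared, since the other peaks entered the table through that same pair. In KLA against Veh, 7 of the 10 peaks qualified, and 1 of the 7 was called lost and 0 gained by edgeR. At an unadjusted p under 0.05, edgeR gave 2 (the Jun promoter and Atf3 −6.7 kb) and DESeq2 gave 1 (the Jun promoter), where edgeR gave 16.4% and DESeq2 4.82% of the peaks of the same set. Calls required an adjusted p under 0.05 and a fold over 2. In that set of 7869 peaks 0.877% were called lost and 3.09% gained. The Jun promoter was low among promoters too, since 5 of the 4049 peaks of that set within 2 kb of a TSS had a lower log2 fold change, where the median was −0.02. Among 1124 peaks with a GC content within 2 percentage points of its own (66.5%) the median was −0.02.

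**Figure D1:**
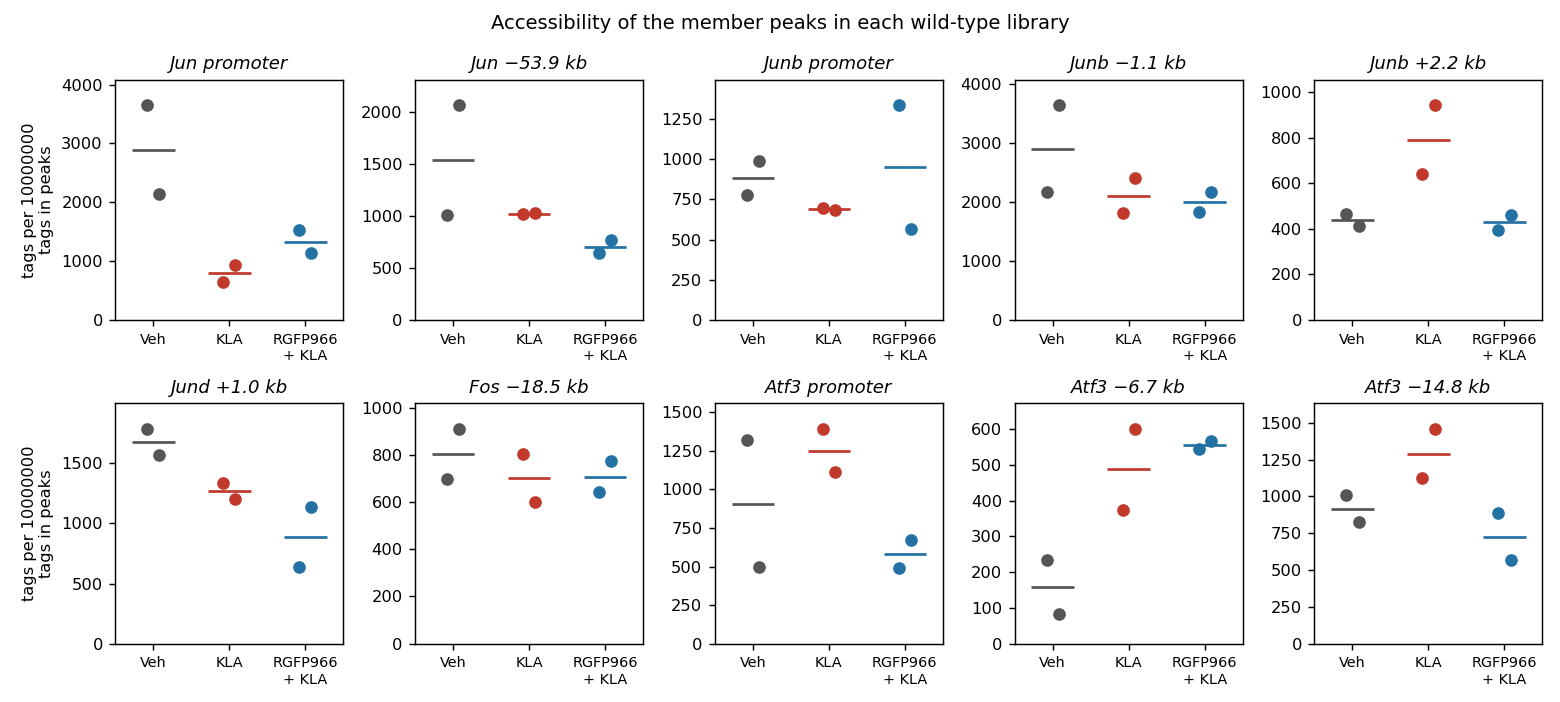
Level of each of the 10 WT peaks (vertical axes, tags per 10000000 tags in peaks, from 0) in Veh, KLA and RGFP966 + KLA libraries (horizontal axes). Points are libraries and lines are means of 2; the Jun promoter stands at 3645 and 2147 in Veh against 642 and 942 in KLA.

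**Figure D2:**
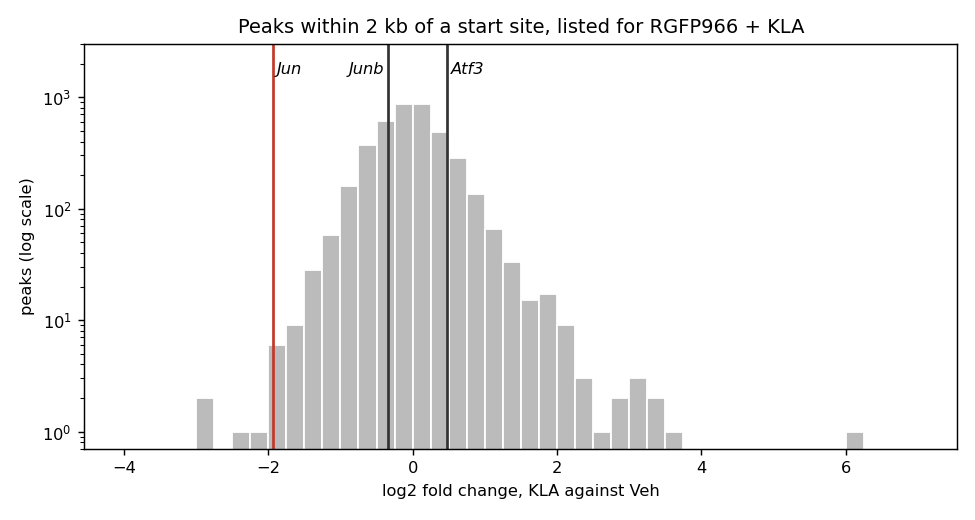
Distribution of log2 fold changes, KLA against Veh (horizontal axis), over the 4049 peaks within 2 kb of a TSS that are listed for RGFP966 + KLA (vertical axis, number of peaks on a log scale). Lines mark the promoters of Jun (red, −1.93), Junb (−0.34) and Atf3 (0.48).

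The second Jun region, intergenic and 53.9 kb upstream of the TSS (chr4:95105975-95106306), was listed in all 3 conditions. Its level was 1008 and 2064 in Veh, 1016 and 1028 in KLA and 642 and 772 in RGFP966 + KLA. The Veh libraries differed from each other by as much as the groups did, and the KLA values lay within the Veh range. The log2 fold change of KLA against Veh was −0.57 (SE 0.35, edgeR adjusted p = 0.390). In RGFP966 + KLA against Veh the region fell by 1.10 (SE 0.36), which is 2.14-fold lower, with an edgeR adjusted p of 0.0402. It was the 1 of 5 testable members called lost in that comparison, against 1.37% of the 5092 peaks of the KLA set, and 0 were called gained, against 4.48%. At an unadjusted p under 0.05, edgeR and DESeq2 each gave this 1 region, against 18.6% and 5.24% of the set. The promoter peak of Zbtb46, the 1 of 4 dendritic cell markers with a peak, stood at 1163 and 578 in Veh, 481 and 857 in KLA and 148 and 257 in RGFP966 + KLA, and its part in this result was not tested. This call did not hold in DESeq2 (adjusted p = 0.647) or with libraries scaled to all their tags (log2 fold change −0.97, edgeR adjusted p = 0.203). It was also lost without Veh replicate 2 (−0.51, adjusted p = 0.586), without RGFP966 + KLA replicate 1 (−0.97, adjusted p = 0.201) and without RGFP966 + KLA replicate 2 (−1.23, adjusted p = 0.110).

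Summed over both regions, Jun stood at 4653 and 4211 in Veh, 1658 and 1970 in KLA and 2173 and 1905 in RGFP966 + KLA. All 4 libraries with KLA lay well below both Veh libraries, and the 2 groups with KLA overlapped. The sum fell by 1.32 on the log2 scale from Veh to KLA (SE 0.24), with adjusted p = 1.7e-05 in edgeR and 0.0410 in DESeq2, each over 5634 genes, of which edgeR called 0.603% lost. Junb, Fos and Atf3 were the other members testable as sums in that comparison, and edgeR and DESeq2 called 0 of these 3. Atf3 alone had an unadjusted p under 0.05 in edgeR (adjusted p = 0.210), and none had one in DESeq2.

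The next question was whether accessibility differed between KLA with RGFP966 and KLA alone. RGFP966 was present before KLA and no group had it alone, so a change before KLA cannot be told apart from one during the response. Of the 10 peaks, 5 could be tested in RGFP966 + KLA against KLA and 0 were called by edgeR or by DESeq2, where 0.0843% of the 4743 peaks of the Veh set were called by edgeR in either direction. At an unadjusted p under 0.05, edgeR gave 1 (the Jun promoter) and DESeq2 gave 0, against 9.32% and 1.08% of the set. The Jun promoter stood 1.75-fold higher with RGFP966 (log2 fold change 0.81, SE 0.37, unadjusted p = 0.0316 and edgeR adjusted p = 0.306). The ratio of tags per depth had an exact 95% interval of 1.06 to 3.02, which covers counting error only. Against Veh, the promoter with RGFP966 + KLA had a log2 fold change of −1.12 (SE 0.28), given without a test because the peak was not listed for KLA. The Jun sum over both regions differed by 0.20 on the log2 scale between RGFP966 + KLA and KLA (SE 0.25, edgeR adjusted p = 0.836).

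**Figure D3:**
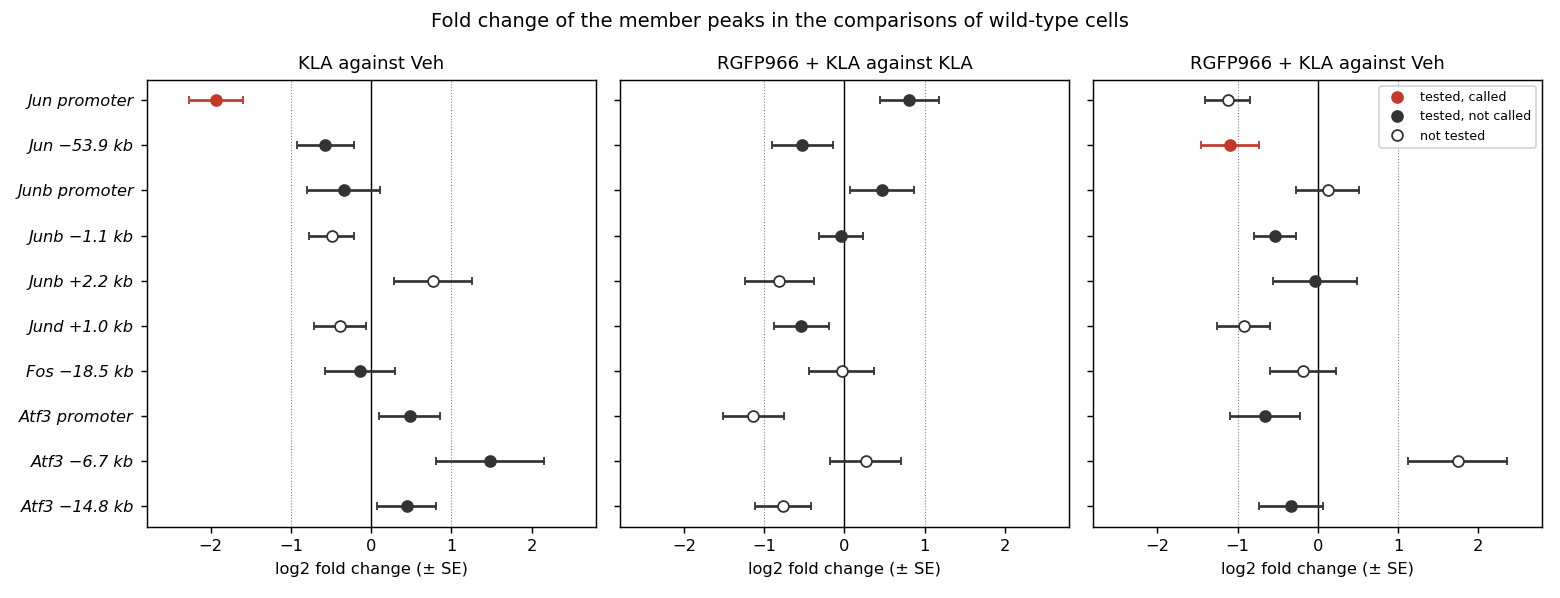
Log2 fold change of each WT peak (horizontal axes, bars are ± SE) in KLA against Veh, RGFP966 + KLA against KLA and RGFP966 + KLA against Veh. Filled points were tested, open points were not, and red marks the called values (Jun promoter, −1.93, and Jun −53.9 kb, −1.10); dotted lines stand at a fold of 2.

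Junb, an AP-1 subunit that can oppose Jun, had 3 peaks, and its most accessible one was not the promoter. The region 1.1 kb upstream (chr8:84979680-84980116) stood at 2171 and 3633 in Veh, 1818 and 2399 in KLA and 1827 and 2163 in RGFP966 + KLA. The Veh and KLA values overlapped. In RGFP966 + KLA against Veh its log2 fold change was −0.53 (SE 0.27, edgeR adjusted p = 0.198). The Junb promoter (chr8:84978618-84978914) stood at 776 and 991 in Veh, 695 and 685 in KLA and 1333 and 566 in RGFP966 + KLA, with a log2 fold change of −0.34 for KLA against Veh (SE 0.45, edgeR adjusted p = 0.749). The region 2.2 kb downstream of the TSS (chr8:84976383-84976636) lies past the RefSeq end of the gene and inside its GENCODE extent, which reaches chr8:84974484. It holds the NFkB-p65 matches and was listed for KLA alone. It stood at 465 and 413 in Veh, 642 and 942 in KLA and 395 and 463 in RGFP966 + KLA, which rests on 5 to 12 tags a library. Its log2 fold changes were 0.77 (SE 0.48) for KLA against Veh and −0.81 (SE 0.43) for RGFP966 + KLA against KLA, both without a test since those comparisons decided its listing.

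Jund, the member of the Jun family usually expressed in resting cells, had 1 peak, in the 5′ UTR 1.0 kb from the RefSeq start (chr8:70698411-70699071) and listed for Veh alone. The GENCODE start of Jund (chr8:70698949) lies inside this peak. Its level was 1784 and 1569 in Veh, 1337 and 1199 in KLA and 642 and 1133 in RGFP966 + KLA. The 3 groups did not overlap, but the Veh values decided the listing of this peak. In a single comparison, 45.8% to 54.7% of all peaks did not overlap. The one test open to it, RGFP966 + KLA against KLA, gave a log2 fold change of −0.54 (SE 0.34, edgeR adjusted p = 0.481).

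Atf3, an ATF family repressor of inflammatory genes that Toll-like receptor ligands induce, had 3 WT peaks. None was listed for Veh, where 48.9% of all WT peaks were. In NCoR f/f cells all 3 Atf3 peaks were listed for vehicle. The promoter peak of WT cells (chr1:191183425-191183674) stood at 1318 and 495 in Veh, 1390 and 1114 in KLA and 494 and 669 in RGFP966 + KLA. The Veh libraries spanned nearly the whole range. The log2 fold change was 0.48 for KLA against Veh (SE 0.38, edgeR adjusted p = 0.533) and −1.14 for RGFP966 + KLA against KLA (SE 0.38), the latter without a test. The region 14.8 kb upstream (chr1:191197992-191198283) stood at 1008 and 826 in Veh, 1123 and 1456 in KLA and 889 and 566 in RGFP966 + KLA. It had a log2 fold change of 0.44 for KLA against Veh (SE 0.37, edgeR adjusted p = 0.570). The region 6.7 kb upstream (chr1:191189944-191190165), which carries the AP-1 match, was listed for RGFP966 + KLA alone. It stood at 233 and 83 in Veh, 374 and 600 in KLA and 543 and 566 in RGFP966 + KLA, and all 4 libraries with KLA lay above both Veh libraries. The RGFP966 + KLA values decided its listing, so their height over Veh is given without a test. The Veh values rest on 3 and 1 tags, so the 2.88-fold ratio of KLA to Veh had an exact 95% interval of 0.905 to 12. The edgeR adjusted p was 0.236. Both upstream distances are counted from the RefSeq start, and both regions lie inside the GENCODE extent of Atf3, which reaches chr1:191218039. As a sum of 3 peaks, Atf3 stood at 2559 and 1404 in Veh, 2887 and 3170 in KLA and 1926 and 1802 in RGFP966 + KLA, with a log2 fold change of 0.58 for KLA against Veh (SE 0.26, edgeR adjusted p = 0.210).

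Fos, the founding partner of Jun, had 1 WT peak, 18.5 kb upstream of the TSS (chr12:85455298-85455581). Its level was 698 and 908 in Veh, 802 and 600 in KLA and 642 and 772 in RGFP966 + KLA. The groups overlapped throughout, and the log2 fold change of KLA against Veh was −0.14 (SE 0.43, edgeR adjusted p = 0.914).

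The 10 peaks together took 0.131% of tags in peaks in both Veh libraries, 0.0984% and 0.110% with KLA and 0.0894% and 0.0881% with RGFP966 + KLA. Jun held most of the fall with KLA. The mean level of all members was 13117 in Veh and 10402 in KLA, and that of Jun 4432 and 1814. The means of Junb (4225 and 3591), Jund (1676 and 1268) and Fos (803 and 701) were lower too, while that of Atf3 was higher (1981 and 3029). Relative to Veh, the median log2 fold change of the 10 peaks was −0.24 with KLA and −0.43 with RGFP966 + KLA, and it was −0.28 between the 2 KLA-treated groups. The medians of all 9698 peaks were 0.02, 0.04 and 0.03. The 3 comparisons share libraries. The groups did not overlap at 6 of the 10 peaks in KLA against Veh, where 47.9% of all peaks did not. In RGFP966 + KLA they did not overlap at 6 against KLA (45.8% of all peaks) and at 5 against Veh (54.7%), so all 3 counts were near the background. Compared per kb of peak length at Veh, the Jun promoter (7641 tags per 10000000 and kb) and the Junb −1.1 kb region (6641) exceeded 96.1% and 93.9% of WT peaks, whereas Atf3 −6.7 kb (710) exceeded 3.37%.

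Fosb, Fosl1, Fosl2, Batf and Maff had no WT peak. Fosb, Fosl1 and Fosl2 encode partners of Jun in the Fos family, Batf a bZIP protein without a transactivation domain, and Maff a small Maf protein that pairs with Cap'n'collar and Bach factors. The nearest WT peak to the RefSeq start of each gene was assigned to another gene and lay 81.4 kb away for Fosb, 22.7 kb for Fosl1, 322.5 kb for Fosl2, 137.9 kb for Batf and 18.3 kb for Maff. All but Fosl1 had peaks in the NCoR f/f table, whose libraries were deeper. For Fosl1, the nearest NCoR f/f peak lay 9.9 kb away and was assigned to Ccdc85b. A missing peak means that no region reached the authors' threshold of reproducibility, and low accessibility was not detectable at this depth.

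The NCoR f/f table was used to describe vehicle-treated cells at the 9 other genes, although it lists peaks of 4 conditions. Of its 42 member peaks, 28 were listed for vehicle. Over all conditions it lists 8 peaks each for Junb and Fos, 5 each for Jun and Batf, 4 each for Fosb and Fosl2, 3 each for Atf3 and Maff and 2 for Jund. Listed for vehicle were 5 each at Junb and Fos, 4 at Fosb and 3 each at Jun, Fosl2 and Atf3. Batf and Maff had 2 each and Jund 1. Counting peaks of any condition, at least 5 were found for 4 of the 9 genes, whereas 5.67% of the 12056 genes with a peak had as many. All 10 WT regions but Atf3 −6.7 kb overlapped an NCoR f/f peak, and 32 of the 42 NCoR f/f peaks had no WT counterpart. The 42 peaks took 0.177% and 0.186% of tags in peaks in the 2 libraries.

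Summed per gene, Junb was highest at 3894 and 4022 tags per 10000000 tags in peaks, followed by Fos at 2820 and 3060 and Jun at 2310 and 2452. Fosb followed at 1960 and 2099, then Fosl2 at 1558 and 1962 and Atf3 at 1531 and 2001, and these 3 overlapped. Batf (1370 and 1236) and Maff (1370 and 785) overlapped too, and Jund stood at 859 and 961, within the range of Maff. The sums hold peaks listed for any condition. A gene with more or wider peaks has a larger sum, so these sums order the loci and not the density of signal.

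Per kb of peak, the most accessible members were Junb −1.2 kb (2296 tags per 10000000 and kb), the Fosl2 −0.7 kb region (2283) and the Atf3 promoter (2011), which exceeded 92.6%, 92.5% and 88.9% of NCoR f/f peaks. The Fosl2 distance is from the RefSeq start, and the GENCODE start of Fosl2 (chr5:32135801) lies inside that region. The Jun promoter (chr4:95051955-95052506) had 967 and 1040 tags per 10000000, or 1818 per kb. The Fos promoter (chr12:85473704-85474250), which had no WT peak, stood at 483 and 451, or 854 per kb, and exceeded 29% of peaks. It lay below the Fos −18.4 kb region (483 and 647, or 1842 per kb). The Fosb promoter (chr7:19310036-19310541) stood at 537 and 530 and the Maff promoter (chr15:79347268-79347616) at 403 and 294. Batf, whose product pairs with Jun and cooperates with IRF proteins in lymphocytes and dendritic cells, had no peak within 2 kb of its TSS. It had 4 intronic peaks 16.9 to 19.1 kb downstream of the TSS, with 54 and 59 at the weakest and 403 and 608 at the strongest, and an upstream peak at −38.6 kb with 430 and 177. Of these 5 peaks, 3 were listed for KLA and not vehicle.

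**Figure D4:**
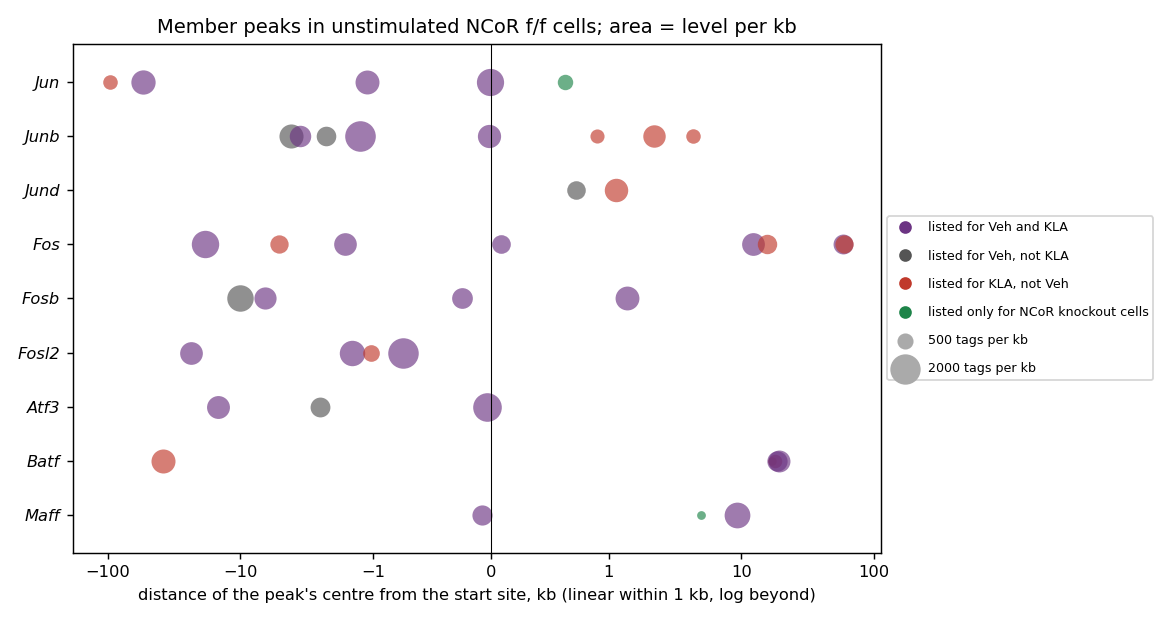
The 42 NCoR f/f peaks by gene (rows) and distance from the TSS (horizontal axis, kb, linear within 1 kb and log beyond). Circle area is the mean level per kb over 2 vehicle libraries and color shows whether the peak was listed for vehicle or KLA; Junb −1.2 kb (2296 per kb) and Fosl2 −0.7 kb (2283 per kb) have the largest circles.

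The same table also records in which of 4 conditions each peak was reproducible, including KLA-treated NCoR f/f cells and NKO cells with and without KLA, whose tags were not analysed here. Of the 42 peaks, 28 (66.7%) were listed for vehicle and 35 (83.3%) for KLA in NCoR f/f cells, against 62.2% and 75.1% of all peaks. The members' 95% Wilson intervals were 51.6% to 79.0% and 69.4% to 91.7%. All intervals here count each peak as independent although the 42 peaks sit at 9 genes, so they cannot serve as a test against all peaks. Those listed for KLA and not vehicle numbered 12, which is 28.6% (95% Wilson interval 17.2% to 43.6%) against 28.7% of all peaks. At least 1 NKO condition was listed for 22 of 42 (52.4%, interval 37.7% to 66.6%) against 64.1% of all peaks, and 6 (14.3%, interval 6.72% to 27.8%) were listed in all 4 conditions, against 22.5%. These 6 were the promoters of Jun, Junb and Atf3, Jun −53.9 kb, Junb −1.2 kb and Maff +9.3 kb. The Jun promoter was thus listed for KLA in NCoR f/f cells, whereas in WT cells it was listed for Veh and RGFP966 + KLA and not for KLA. Junb +2.2 kb was listed for KLA and not vehicle in NCoR f/f cells, as in WT cells, but for NKO cells both with and without KLA. In the NCoR f/f vehicle libraries it stood at 618 and 608 tags per 10000000, and its mean per kb exceeded 60.7% of NCoR f/f peaks. The Jun 5′ UTR peak at +0.6 kb and the intronic Maff +4.9 kb peak were listed for KLA-treated NKO cells alone.

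In the central 200 bp of the 42 peaks, the AP-1 consensus occurred in 1 (2.38%) against 13.7% of all 24620 peaks on assembled chromosomes. The NFkB-p65 consensus occurred in 4 (9.52% against 4.51%) and the CArG box, the site of the serum response factor that drives immediate early genes, in 3 (7.14% against 0.955%). The 3 with a CArG box were the Fosb promoter, Fos +12.2 kb and Junb +2.2 kb. PU.1 and C/EBP sequences occurred in 4 each (9.52%), against 8.05% and 9.86%. The window mattered. Over whole peaks (median length 337 bp in the members and 291 bp in all peaks) the AP-1 consensus occurred in 4 (9.52% against 15.85%). There the NFkB-p65 consensus occurred in 10 (23.8% against 6.70%) and the CArG box in 4 (9.52% against 1.38%). The central 200 bp had a median GC content of 59.5% in the members and 56% in all peaks, and its part in these counts was not tested. The 42 peaks sit at 9 genes, so the counts are not of independent loci. The Fosb promoter holds both an NFkB-p65 and a CArG match, and the Maff promoter holds the TGACGTCA element. They are shown because, among peaks with such a match in the central 200 bp, they lie nearest an annotated start. The Fosb stretch is chr7:19310189-19310388 on the minus strand, with the NFkB-p65 match starting 182 bp and the CArG match 266 bp upstream of the GENCODE start of the gene. The Maff stretch is chr15:79347343-79347519 on the plus strand and ends at the base before a second GENCODE start of Maff, 899 bp downstream of the outermost one, with the element starting 29 bp upstream of that second start. Capitals mark the matches.
Fosb promoter: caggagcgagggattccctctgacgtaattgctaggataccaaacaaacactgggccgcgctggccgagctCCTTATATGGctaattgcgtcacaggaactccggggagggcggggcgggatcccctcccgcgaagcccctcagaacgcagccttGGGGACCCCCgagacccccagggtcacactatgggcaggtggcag
Maff promoter: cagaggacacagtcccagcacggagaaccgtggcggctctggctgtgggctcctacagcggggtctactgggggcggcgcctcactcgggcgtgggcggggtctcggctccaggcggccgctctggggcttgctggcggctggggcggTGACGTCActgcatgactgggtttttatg

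The distance limit left out 1 WT peak, at Jun −109.1 kb, and 6 NCoR f/f peaks. The WT peak just outside had 2094 and 1239 in Veh, 1016 and 771 in KLA and 1185 and 1493 in RGFP966 + KLA, and the WT peak just inside was Jun −53.9 kb. In NCoR f/f cells the peak just inside was Jun −96.6 kb (81 and 137) and the nearest outside was Jun −109.2 kb (859 and 745).

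Peaks of related genes were counted from lists written beside the members. For 35 other bZIP genes, 29 had a WT peak within 100 kb, and 1 of 33 testable peaks was called gained with KLA and 0 lost. That peak lay 26.0 kb downstream of the TSS of Bach1, which encodes a bZIP repressor of heme oxygenase, and stood at 155 and 83 in Veh, 1016 and 1114 in KLA and 839 and 927 in RGFP966 + KLA (log2 fold change for KLA against Veh 3.05, SE 0.63, edgeR adjusted p = 0.0018). For 22 kinases upstream of AP-1, 1 of 14 testable peaks was gained and 0 lost. It was 28.2 kb from the TSS of Map2k6, a kinase that activates p38, at 388 and 495 in Veh and 1444 and 1114 in KLA (1.56, SE 0.44, edgeR adjusted p = 0.0226). For 20 genes known as AP-1 targets, 7 had a peak, and 1 of 9 testable peaks was gained and 0 lost. It was 11.0 kb from the TSS of Mmp14, a membrane-bound matrix metalloproteinase, at 233 and 578 in Veh and 1818 and 1885 in KLA (2.18, SE 0.42, edgeR adjusted p = 8.1e-04). DESeq2 called none of the 56 testable peaks of the 3 lists, of which 19 (edgeR) and 6 (DESeq2) had an unadjusted p under 0.05, where 16.4% and 4.82% of the 7869 peaks of the set did. The 3 gained peaks stand against 3.09% of the set called gained. The medians of the 3 lists were 0.13, 0.19 and 0.51, against 0.04 over the set. In RGFP966 + KLA against KLA 0 of the 35 testable peaks of the 3 lists were called by edgeR or DESeq2, and 6 (edgeR) and 0 (DESeq2) had an unadjusted p under 0.05, against 9.32% and 1.08% of the Veh set. In RGFP966 + KLA against Veh, edgeR called 4 of the 39 testable peaks gained and 0 lost. Of the 5092 peaks of the KLA set, 4.48% were called gained and 1.37% lost. The 4 were the Bach1, Map2k6 and Mmp14 peaks again, on the same Veh libraries, together with Spp1 −54.3 kb. DESeq2 called 0 peaks of the whole table in this comparison. At an unadjusted p under 0.05, edgeR gave 11 of the 39 and DESeq2 gave 2, against 18.6% and 5.24% of the set.

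Among 296 other genes with at least 300 tags, the 3 whose summed levels most resembled the sum of the members over the 6 WT libraries were Alcam (Pearson r = 0.982), Chd9 (0.946) and Cttnbp2nl (0.938). The 6 points are 3 pairs that share a treatment and the scaling to tags in peaks, so r describes the likeness of these libraries only.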

How the data were processed

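ATAC-seq single-end reads were aligned to mm10 with Bowtie2 and processed with HOMER, per the submitters' processing notes, which also name DESeq2 without versions. The authors called peaks per condition by IDR on replicates, merged them and deposited raw counts of tags per peak (at most 3 tags per position, per the file headers). A count divided by the library's total tags in peaks gave the level. Total counts limit the precision, and intervals cover counting error only. Peaks were kept if their assigned gene was a member and the distance to the TSS was at most 100 kb. The members and lists were chosen with earlier results of these data known.

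All 9698 WT peaks (at least 4 tags in 1 library) entered edgeR 4.0.16 (glmQLFit and glmQLFTest in R 4.3.3), with the 6 WT libraries in 1 model, tags in peaks as library size and Benjamini-Hochberg adjustment. The SE was the absolute log2 fold change over the square root of F. Gene sums used the peaks listed in the condition outside each pair. DESeq2 1.42.0, TMM factors, all tags as library size, no filter, 16 tags, the 4 libraries compared, the replicate block, each library left out, 20 kb and a fold of 1.5 were alternatives. Offsets by GC bin were added after seeing the data. Scripts were tested on simulated data. Named peaks were, for each member, the one nearest the TSS, the deepest beyond 2 kb and any called. The NCoR f/f libraries bear another library date and were scaled in their own table, so no test was made across tables. The 5 genes most like the members were taken by Pearson r, and some genes of this list and of the marker lists are not reported here.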

Additional observations from a re-analysis of the deposited data

How the results depend on the processing

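The loss at the Jun promoter with KLA (−1.93) was called under each edgeR alternative, including offsets by GC bin (−1.87), and not by DESeq2 (−1.93, 0 members called). Without 1 library its range was −2.25 to −1.49. Within 20 kb, 0 members were called in RGFP966 + KLA against Veh, which was fixed in advance because Jun −53.9 kb lies outside that limit. The Jun −53.9 kb call in that comparison was lost with DESeq2 (−1.17, 0 called) and with library sizes from all tags (−0.97, 0 called). Without 1 library it ranged from −1.54 to −0.51, with 0 or 1 called. The Jun sum in that comparison, which held only this region (−1.10, not called over all gene sums), ranged from −1.54 to −0.51 without 1 library, with 0 or 1 called. The cause of these losses was not tested. In NCoR f/f cells the members stood at 463 tags per 10000000 when all tags were the denominator. Over whole peaks the CArG box and C/EBP sequence each occurred in 1 of the 10 WT peaks, and in NCoR f/f peaks AP-1 matches numbered 4, TGACGTCA 2 and NFkB-p65 10. Of 373 recomputed fold changes of tested peaks and sums, 348 kept their call or, where not called, moved by less than the replicate spread. None that was called turned direction. The fit with no filter repeated the main fit, since all 9698 peaks passed the filter. Leaving out a library of the group not compared moved a fold change little. The 348 thus include values nearly fixed in advance, and the count does not measure robustness. The labels give replicate numbers, but same-numbered libraries did not deviate together (correlations of −0.0020, 0.0059 and 0.026 over 9698 peaks). With the replicate block 1 member was called in KLA against Veh, 0 in RGFP966 + KLA against KLA and 1 in RGFP966 + KLA against Veh. Low tag numbers limit each value: 15 of the 60 values of members in WT libraries held 10 tags or fewer.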
